A study of Homo sapiens with 8 samples.

Results

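Laminins are the large cross-shaped glycoproteins that form the first network of a basement membrane, and integrins are the membrane receptors through which cells hold on to laminin, collagen and other matrix proteins. The 9 genes described here are 4 laminin chains (*LAMA2*, *LAMB1*, *LAMB3* and *LAMC1*) and 5 integrin subunits (*ITGA2*, *ITGA6*, *ITGAV*, *ITGB6* and *ITGB8*). They were found by gene symbol among the 28015 genes listed for both cell lines, out of 28043 genes listed for HCT116 and 63241 for NCI-H716. RNA came from HCT116, a colorectal cancer line that grows attached to the dish, and from NCI-H716, a colorectal cancer line with neuroendocrine traits that grows in suspension. Each line was left as control or treated with Z325 (ZINC000101867325), a compound selected by the study as a candidate inhibitor of fibroblast growth factor receptors, and each of the 4 groups had 2 libraries. The labels call the treated libraries "Test" and give neither the dose nor the length of treatment. The study chose its working concentration of Z325 from growth assays in these lines and does not restate it, or give the length of treatment, for the sequenced cells. The RNA of about 100 cells went into each reaction. Each line is 1 cell line with no stated genetic change, and the study calls the 2 libraries of a group biological duplicates. Neither it nor the labels say whether they came from separate cultures, so p-values measure only the spread between these libraries, which may be technical.

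A laminin molecule is a trimer of 1 alpha, 1 beta and 1 gamma chain. The product of *LAMA2* is the alpha chain of the laminin of muscle and peripheral nerve, and binds dystroglycan as well as integrins. *LAMB1* and *LAMC1* encode the beta and gamma chains shared by many laminins, whereas *LAMB3* encodes the beta chain of the epithelial laminin that anchors hemidesmosomes. Integrins are pairs of 1 alpha and 1 beta subunit. The *ITGA2* subunit pairs with the *ITGB1* subunit to bind collagen and laminin, and the *ITGA6* subunit pairs with the *ITGB1* or *ITGB4* subunit to bind laminin. The alphaV subunit, from *ITGAV*, takes several beta partners, and with the *ITGB6* or *ITGB8* product it binds latent TGF-beta and releases its active form. The *ITGB1* and *ITGB4* genes lie outside the stretch of the genome analysed for HCT116, so the main partner of most of these alpha subunits could be followed in NCI-H716 alone.

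In the coordinates of GRCh38 and GENCODE v44, which matched those of the HCT116 table for all 9 genes, *LAMA2* spans chr6:128883138-129516566 on the plus strand, *LAMB1* chr7:107923799-108003213 on the minus strand, *LAMB3* chr1:209614870-209652425 on the minus strand and *LAMC1* chr1:183023420-183145592 on the plus strand. *ITGA2* lies at chr5:52989340-53094779, *ITGA6* at chr2:172427354-172506459, *ITGAV* at chr2:186590010-186680901 and *ITGB8* at chr7:20330702-20415754, all on the plus strand, and *ITGB6* at chr2:160099667-160200313 on the minus strand. All 9 are protein-coding genes. The library kit named in the methods does not mark the strand, so reads from exon bases shared with another gene cannot be assigned with certainty. *LAMC1* and *ITGA2* share no exon base with another gene, and for the other genes except *ITGB6* no single overlap covers more than 2.61% of the exon bases. *ITGB6* shares 16.7% of its exon bases with the lncRNA gene ENSG00000285155 on the same strand, and how many of its reads fell there was not counted, so its values are uncertain.

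Promoters are printed for the 2 genes called with Z325, *LAMA2* and *LAMB3*, and for 3 that set the lines apart, *ITGA6*, *ITGB6* and *ITGB8*, because their base composition differs widely. The windows are the 250 bases before the RefSeq transcription start (GRCh38.p14), cut where an annotated exon begins, read 5′ to 3′ on the strand of the gene. All 9 genes had a window in the RefSeq table. Capitals mark matches on either strand to TATAAA (the motif known as the TATA box), to GGGCGG (the GC box), to TGA and TCA with any base between them (the AP-1 site) or to TGACNNNGC (the antioxidant response element core). In the order printed, the coordinates are chr6:128882888-128883137 for *LAMA2*, chr1:209652426-209652675 for *LAMB3*, chr2:172427086-172427335 for *ITGA6*, chr2:160200314-160200522 for *ITGB6* and chr7:20330650-20330701 for *ITGB8*.
LAMA2: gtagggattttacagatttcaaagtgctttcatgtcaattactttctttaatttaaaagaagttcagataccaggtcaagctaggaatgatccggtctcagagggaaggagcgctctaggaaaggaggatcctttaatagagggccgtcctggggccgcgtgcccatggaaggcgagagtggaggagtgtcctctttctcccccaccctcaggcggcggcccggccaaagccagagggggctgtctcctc
LAMB3: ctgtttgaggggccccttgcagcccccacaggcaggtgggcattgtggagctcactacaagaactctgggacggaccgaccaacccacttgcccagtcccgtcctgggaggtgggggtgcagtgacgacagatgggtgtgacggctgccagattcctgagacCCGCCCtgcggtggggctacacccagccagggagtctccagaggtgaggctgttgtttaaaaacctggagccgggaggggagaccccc
ITGA6: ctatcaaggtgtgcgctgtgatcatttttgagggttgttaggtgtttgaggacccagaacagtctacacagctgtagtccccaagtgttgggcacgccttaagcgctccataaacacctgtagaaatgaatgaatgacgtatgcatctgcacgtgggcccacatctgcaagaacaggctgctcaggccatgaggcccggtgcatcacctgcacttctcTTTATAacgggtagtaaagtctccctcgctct
ITGB6: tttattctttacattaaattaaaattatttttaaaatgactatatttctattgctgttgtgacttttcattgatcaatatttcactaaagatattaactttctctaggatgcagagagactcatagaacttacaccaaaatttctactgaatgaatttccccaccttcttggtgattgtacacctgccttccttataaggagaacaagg
ITGB8: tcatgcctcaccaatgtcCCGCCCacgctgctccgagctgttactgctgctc

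Over the full 250 bases, *ITGB6* was 30.0% G and C and stood at percentile 1.5 of the 35114 windows in the table, whose median was 58.0%. *ITGB8* was 71.2% G and C, but only its first 52 bases lie before what GENCODE annotates as an exon. These 2 beta partners of alphaV stood far apart over the full windows, and most of the *ITGB8* window lies past that exon start. *LAMC1* was higher still at 79.6% and *ITGA2* at 76.4%, and *LAMA2* and *ITGA6* were at 53.2% and 50.8%. A GC box was found in *LAMB1* (4 matches, a pair of them overlapping), *LAMB3* (1), *LAMC1* (3), *ITGA2* (4) and *ITGB8* (2), and 42.6% of all windows hold one. The only match to the TATA box was in *ITGA6*, 32 bases before the start. It lies on the strand opposite to the gene and reads TTTATA as printed. On either strand, the motif was found in 10.7% of windows. None of the 9 windows held the AP-1 letters (6.57% of all windows) or the antioxidant response element core (10.9%). A match is a string of letters and not a shown binding site.

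Counts per library ran from 3434620 to 13396225 in HCT116, where Z325 replicate 2 was the shallow library, and from 10210239 to 19738840 in NCI-H716. The deposited HCT116 table used here reaches chromosome 9 at base 4587469, and all 9 genes lie before that point. In edgeR's quasi-likelihood test with Benjamini-Hochberg adjustment, 184 genes were higher and 191 lower with Z325 among 6491 tested in HCT116, and 57 were higher and 14 lower among 14142 tested in NCI-H716. In NCI-H716, edgeR without a filter on low counts gave 290 and 487 among 31956 genes, and DESeq2, with its own size factors and the same 31956 genes, gave 162 and 154, so that split depends on the processing. The epithelial marker *EPCAM* was at 1424 to 1655 CPM in HCT116, and all 12 neuroendocrine markers had counts in NCI-H716, with *CHGB* at 458 to 765 CPM. Fibroblast markers summed to at most 5.14 CPM in HCT116, where only 6 of the 10 are listed. In NCI-H716 all 10 are listed and summed to between 474.5 and 525 CPM, so the 2 sums cover different genes. There *COL3A1* and *LUM* led the list and 7 of the 10 had counts, while *POSTN*, *TWIST1* and *TWIST2* were at 0. Endothelial and leukocyte markers each summed to at most 1.29 CPM in every library, with *KDR* at 0 in all NCI-H716 libraries and *HLA-DRA* at 0 in both lines. In HCT116 these sums cover only 1 of 6 endothelial markers, *KDR*, and 5 of 7 leukocyte markers. In NCI-H716, the marker sums moved with Z325, the epithelial ones from 766 and 798 to between 663 and 678 CPM and the neuroendocrine ones from 1097 and 1204 to between 1379 and 1594 CPM, and their part in the values below was not tested.

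The first comparison was that of the untreated lines. HCT116 had more *ITGA6*, *ITGB8* and *ITGAV*, and NCI-H716 more *LAMB1*, *LAMC1*, *ITGA2* and *ITGB6*. At an adjusted p under 0.05 from edgeR, 7 of the 9 genes differed, 3 higher (33.1% of all genes) and 4 lower in HCT116 (40.7%), whereas *LAMA2* and *LAMB3* did not pass. Of all 7343 genes tested between the lines, 73.8% passed, so 7 of 9 is near the share of all genes. *ITGB6* and *ITGB8*, among the 7, passed the filter on low counts only through the line where they were high. The median log2 difference of all genes was -0.18 and moved to -0.35 with library totals alone. The control libraries of the 2 lines did not overlap for 8 of the 9 genes, against 87.0% of all genes. HCT116 reads were counted in a table of the featureCounts layout and NCI-H716 reads by RSEM, so the line and the counting tool cannot be told apart in these values. In bulk RNA, fewer cells with a transcript and less of it per cell cannot be told apart either. Between-line values are on the 8-library scale, in CPM (counts scaled to the size of the library) over the shared genes after TMM scaling, whereas the comparisons of Z325 with control use CPM over all listed genes of the line.

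**Figure D1:**
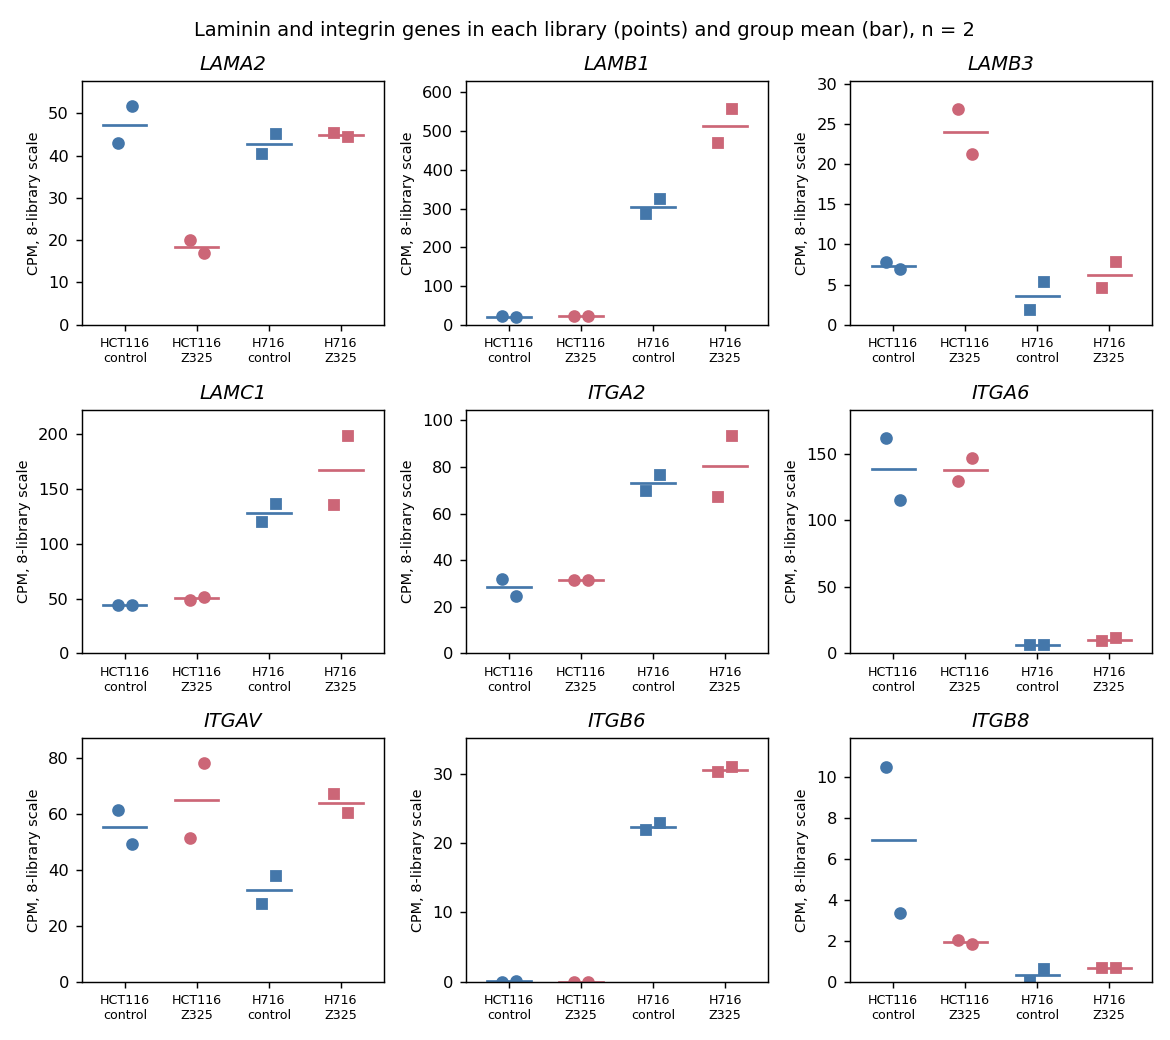
CPM on the 8-library scale (vertical axes, each from 0) of the 9 genes in every library, with circles for HCT116, squares for NCI-H716, blue for control and red for Z325, and bars for the mean of 2 libraries. *LAMB1* in NCI-H716 lies between 285 and 556 CPM against 20.1 to 23.4 CPM in HCT116, and *ITGA6* shows the opposite order.

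Among the laminin chains, *LAMA2* did not pass the test between the untreated lines. The controls held 43.0 and 51.6 CPM in HCT116 and 40.5 and 45.0 CPM in NCI-H716 on the 8-library scale, and their ranges overlapped. The log2 difference, HCT116 minus NCI-H716, was 0.15 with a 95% interval from -0.32 to 0.62 (adjusted p = 0.556, edgeR), and it was -0.02 when library totals alone were used for scaling.

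In HCT116, *LAMA2* fell with Z325. Its counts were 557 and 644 in control and 236 and 56 in treated cells, which is 40.3 and 49.4 CPM against 18.5 and 16.0 CPM on the scale of the line. Both treated libraries were below both controls, and the mean fell from 44.8 ± 6.44 to 17.3 ± 1.71 CPM (SD, n = 2). On the log2 scale this was a change of -1.37 with a standard error of 0.25 (adjusted p = 0.0219, edgeR's quasi-likelihood test). This gene stands in the study's own display of genes lower in treated HCT116 cells, chosen on these libraries, so its fall here is not independent evidence. Leaving out HCT116 control replicate 1 or 2 kept the direction (-1.52 and -1.23) but ended the call, with adjusted p = 0.118 and 0.243, and limma on log2(FPKM + 1) gave -0.72 with adjusted p = 0.492.

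In NCI-H716, *LAMA2* was at 18.5 and 21.3 CPM in control and 21.1 and 20.5 CPM in treated cells on the scale of that line. The treated values lay within the range of the controls. Its log2 fold change was 0.06 with a 95% interval from -0.41 to 0.53 (adjusted p = 0.909, edgeR), an interval that excludes a fall as large as the one fitted in HCT116. The test of the difference between the lines gave -1.41 (HCT116 minus NCI-H716, 95% interval -2.13 to -0.70), the smallest p of the 9 genes at 0.00101, but adjusted p = 0.117 in edgeR. DESeq2 called it, at -1.33 and adjusted p = 0.0467. Across its alternatives, the adjusted p of this difference ran from 0.0467 to 0.421.

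*LAMB1*, the beta chain of most laminins outside the epithelial kind, showed the largest between-line gap of the laminins on the list. The controls held 21.9 and 20.1 CPM in HCT116 and 285 and 324 CPM in NCI-H716 on the 8-library scale. No HCT116 library came near the lowest NCI-H716 library, and the mean was 14.5-fold higher in NCI-H716. The log2 difference was -3.86 (standard error 0.18, adjusted p = 2.91e-09, edgeR), and it ran from -4.03 to -3.16 over the alternatives. About 1.61% of its exon bases are shared with *DLD* on the other strand.

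With Z325, *LAMB1* stood at 20.5 and 19.3 CPM in control and 20.6 and 22.1 CPM in treated HCT116 cells, on the scale of the line. The treated libraries were above the controls, the lower by a margin smaller than the spread between the controls. In NCI-H716, it was at 130 and 154 CPM in control and 219 and 256 CPM in treated cells, with both treated libraries above both controls. The fitted change there was 0.74 on the log2 scale (standard error 0.17, unadjusted p = 0.00136), a 1.67-fold higher mean, and adjusted p = 0.104 in edgeR's test did not pass. DESeq2 called it at adjusted p = 0.00912, and so did edgeR without a filter on low counts (0.00365), with a replicate block (2.58e-07) and without NCI-H716 Z325 replicate 1 (0.00145). Over all alternatives its adjusted p ran from 2.58e-07 to 0.72. The difference between the lines in response was -0.64 (95% interval -1.15 to -0.13, adjusted p = 0.254, edgeR).

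*LAMB3*, the epithelial beta chain, rose with Z325 in HCT116. Its counts were 101 and 86 in control and 318 and 70 in treated cells, which is 7.30 and 6.60 CPM against 24.9 and 20.1 CPM on the scale of the line. Both treated libraries were above both controls, also the shallow one, and the mean was 3.23-fold higher (6.95 ± 0.50 and 22.5 ± 3.40 CPM, SD, n = 2). The change was 1.70 on the log2 scale with a standard error of 0.31 (adjusted p = 0.0219, edgeR). Leaving out HCT116 control replicate 1 or 2 ended this call as well, with log2 fold changes of 1.77 and 1.62 and adjusted p = 0.161 and 0.228, and limma on log2(FPKM + 1) gave 1.19 with adjusted p = 0.243.

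In NCI-H716, *LAMB3* counts were 11 and 26 in control and 28 and 72 in treated cells, 0.83, 2.52, 2.14 and 3.62 CPM in that order on the scale of the line. One treated library lay below the higher control, so the groups overlapped. The log2 fold change was 0.82 with a 95% interval from -0.51 to 2.15 (adjusted p = 0.52, edgeR), and at this depth neither no change nor a rise like that in HCT116 lies outside the interval. The difference in response between the lines was 0.87 (adjusted p = 0.588) and turned to -0.09 without NCI-H716 control replicate 2. Between the untreated lines, *LAMB3* was at 7.79 and 6.89 CPM in HCT116 and 1.82 and 5.31 CPM in NCI-H716 on the 8-library scale. Both HCT116 libraries were higher, with a log2 difference of 1.07 (adjusted p = 0.0843, edgeR) that became 1.98 (adjusted p = 0.0156) without NCI-H716 control replicate 2, and that passed also without a filter (1.16) and after thinning to the shallowest library (1.39).

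*LAMC1*, the gamma chain of most laminins, was at 43.7 and 44.5 CPM in HCT116 controls and 120 and 136 CPM in NCI-H716 controls on the 8-library scale. The lines were well apart, by -1.54 on the log2 scale (standard error 0.18, adjusted p = 1.01e-05, edgeR), a 2.90-fold higher mean in NCI-H716. With Z325, it stood at 41.0 and 42.6 CPM in control and 45.3 and 48.4 CPM in treated HCT116 cells on the scale of the line. In NCI-H716, it was at 54.8 and 64.5 CPM in control and 63.2 and 91.6 CPM in treated cells, and these overlapped. Neither change passed the test, with log2 fold changes of 0.16 (95% interval -0.31 to 0.63) and 0.38 (95% interval -0.09 to 0.84).

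*ITGA2*, the collagen-binding alpha subunit, was higher in the suspension line. The controls held 32.0 and 24.5 CPM in HCT116 and 69.8 and 76.4 CPM in NCI-H716 on the 8-library scale, with no overlap. The log2 difference was -1.37 (standard error 0.22, adjusted p = 0.000135, edgeR), 2.59-fold on the means. Z325 left it at 30.0 and 23.5 CPM in control against 29.3 and 29.5 CPM in treated HCT116 cells, and at 31.9 and 36.3 CPM against 31.2 and 43.1 CPM in NCI-H716, on the scale of each line. The groups overlapped in both lines, and the fitted changes of 0.13 and 0.13 were smaller than their standard errors of 0.25 and 0.21. The sign turned without HCT116 control replicate 2 (-0.04) and without NCI-H716 Z325 replicate 2 (-0.11).

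*ITGA6*, the laminin-binding alpha subunit, showed the reverse. The controls held 162 and 115 CPM in HCT116 and 6.47 and 6.34 CPM in NCI-H716 on the 8-library scale. The log2 difference was 4.43 (standard error 0.26, adjusted p = 2.36e-08, edgeR), a 21.7-fold higher mean in HCT116. The HCT116 controls differed from each other by more than the treated libraries did, and control replicate 1 was the highest library. In HCT116, Z325 gave 120 and 139 CPM against 152 and 110 CPM in control on the scale of the line, and the log2 fold change of -0.02 (95% interval -0.46 to 0.41) changed sign without HCT116 control replicate 1 (0.22). In NCI-H716, its counts were 39 and 31 in control and 54 and 104 in treated cells, 2.95 and 3.01 CPM against 4.12 and 5.23 CPM. Both treated libraries were higher, but the log2 fold change of 0.65 (95% interval -0.19 to 1.5) did not pass the test (adjusted p = 0.413, edgeR).

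*ITGAV*, the alpha subunit shared by the receptors for RGD ligands such as vitronectin and latent TGF-beta, was at 61.4 and 49.2 CPM in HCT116 and 27.9 and 37.8 CPM in NCI-H716 controls on the 8-library scale. HCT116 was higher by 0.75 on the log2 scale (standard error 0.24, adjusted p = 0.0124, edgeR), and this call was lost without NCI-H716 control replicate 1 (0.52, adjusted p = 0.141) and with limma on log2(FPKM + 1) (0.40, adjusted p = 0.237). With Z325, HCT116 went from 57.6 and 47.1 CPM to 47.7 and 73.9 CPM on the scale of the line. The treated libraries lay on either side of the controls, and the log2 fold change of 0.20 turned to -0.11 without the shallow library, HCT116 Z325 replicate 2.

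In NCI-H716, *ITGAV* was at 12.7 and 17.9 CPM in control and 31.2 and 27.9 CPM in treated cells. Both treated libraries were above both controls, by 1.93-fold on the means, and the log2 fold change of 0.95 (standard error 0.23, unadjusted p = 0.00211) missed the threshold after adjustment (adjusted p = 0.118, edgeR). It passed in DESeq2 (0.0398), without a filter (0.00878), with a replicate block (1.09e-05), and without NCI-H716 Z325 replicate 1 (0.0304) or 2 (0.0253). Its adjusted p ran from 1.09e-05 to 0.724 over the alternatives. On the 8-library scale the treated NCI-H716 libraries held 67.2 and 60.6 CPM, values within those of the treated HCT116 libraries, 51.5 and 78.3 CPM. The difference in response, -0.75 (95% interval -1.54 to 0.05, adjusted p = 0.377, edgeR), was not called.

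*ITGB6*, the beta subunit of an epithelial activator of latent TGF-beta, was nearly confined to 1 line. Its counts in HCT116 were 0 and 2 in control and 0 and 0 in treated cells, which was too few to test, and in NCI-H716 132 and 112 in control and 184 and 285 in treated cells. Over both controls, 244 counts stood against 2, a ratio of 284 scaled for library size with an exact 95% counting interval from 77.8 to 2360. A count of 0 allows up to 3 counts, which is 0.23 to 0.91 CPM across the HCT116 libraries on the 8-library scale, and these limits and intervals cover counting error only. The between-line difference passed the test (adjusted p = 4.37e-07, edgeR). With so few HCT116 counts, *ITGB6* passed the filter on low counts only through NCI-H716, so this direction was set beforehand. With Z325, NCI-H716 moved from 9.995 and 10.9 CPM to 14.1 and 14.3 CPM on the scale of the line. The treated pair was higher and its members close together, but the log2 fold change of 0.45 (95% interval -0.08 to 0.97) was not called (adjusted p = 0.367, edgeR).

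*ITGB8*, the beta subunit of the other alphaV activator of latent TGF-beta, had the opposite distribution. Its counts were 136 and 42 in HCT116 controls and 0 and 3 in NCI-H716 controls, a ratio of 25.5 (exact 95% counting interval 8.58 to 125). The 2 HCT116 controls stood apart, at 10.5 and 3.37 CPM on the 8-library scale. The fitted log2 difference of 4.57 became 3.57 without HCT116 control replicate 1, 5.16 without HCT116 control replicate 2, 3.44 without NCI-H716 control replicate 1 and 9.18 without NCI-H716 control replicate 2, which leaves a single library with no count. The between-line difference passed in edgeR (adjusted p = 0.00116) but not in limma on log2(FPKM + 1) (adjusted p = 0.164) or log2(FPKM + 0.1) (0.0908). *ITGB8* passed the filter on low counts only through HCT116, so this direction was set beforehand too. With Z325, HCT116 held 24 and 6 counts, or 1.88 and 1.72 CPM against 9.84 and 3.22 CPM in control. Both treated libraries were below both controls, but the controls lay further from each other than the lower one did from the treated libraries. The log2 fold change of -1.84 (95% interval -3.30 to -0.38, unadjusted p = 0.0194) did not pass after adjustment (adjusted p = 0.128, edgeR). It ran from -2.44 to -0.35 over the alternatives and was called without a filter (adjusted p = 0.028) and without HCT116 Z325 replicate 1 (0.029) or 2 (0.012). The study displays *ITGB8* among the genes lower in treated HCT116 cells, so its direction is not independent evidence either. *ITGB8-AS1*, which lies on the other strand and overlaps 0.87% of its exon bases, had 17 and 25 counts in control and 0 and 2 in treated HCT116 cells. In NCI-H716, *ITGB8* had 0 and 3 counts in control and 4 and 6 in treated cells, too few to test.

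Taking the response over the list, 8 genes could be tested in each line. The list was chosen with earlier results of these data known. Its shares beside those of all genes are therefore not independent evidence. In HCT116, 2 of 8 passed, 1 higher and 1 lower, against 5.78% of all genes tested (2.83% higher and 2.94% lower), 3 had an unadjusted p under 0.05, against 23.9%, and the groups did not overlap for 5 of 8, against 53.8% of all genes. The median log2 fold change of the 8 was 0.12, beside -0.03 for all genes. In NCI-H716, 0 of 8 passed in edgeR, against 0.502% of all genes, 2 had an unadjusted p under 0.05, against 16.9%, and DESeq2 called 2 (*LAMB1* and *ITGAV*). All 8 fitted changes in NCI-H716 were positive, although that of *LAMA2* became -0.03 without NCI-H716 control replicate 1 and that of *ITGA2* -0.11 without Z325 replicate 2. Their median was 0.55 beside -0.01 for all genes, and in 4 of 8 both treated libraries exceeded both controls, against 24.3% of all genes tested. In the test of the difference between the lines, 0 of 9 passed in edgeR, against 0.0654% of all genes, 2 had an unadjusted p under 0.05, against 14.3%, and DESeq2 called 1 (*LAMA2*). These 9 include *ITGB6* and *ITGB8*, each with too few counts to test in 1 line. Their standard errors in the test of the difference were 1.94 and 1.45, which left little room for a call. The 2 lines have no library in common, but the test of each line shares its control libraries with the between-line comparison.

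Other laminin chains and integrin subunits also differed between the untreated lines. Among the laminins, *LAMA4*, an alpha chain of vessel and mesenchymal laminins, was lower in HCT116 by 3.58 on the log2 scale (adjusted p = 2.51e-07, edgeR), at 4.47 and 4.41 CPM against 57.2 and 49.3 CPM. *LAMB2*, the beta chain of synaptic and kidney laminins, differed by -2.08 (adjusted p = 0.00031, edgeR). Of the 6 laminin chains considered that were tested, 4 differed between the lines, all lower in HCT116, against 73.8% of all genes (40.7% lower), with a median log2 difference of -1.81 beside -0.18 for all genes.

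Among the integrins, *ITGA1*, the second collagen-binding alpha subunit, had 3 and 1 counts in HCT116 controls and 1132 and 989 in NCI-H716 controls, a ratio of 1240 (exact 95% counting interval 482 to 4540). It shares exon bases with *RPL17P21* (3.08%) and *PELO* (2.69%) on the same strand and with *ITGA2-AS1* (7.47%) and *PELO-AS1* (0.588%) on the other, and how many reads fell there was not counted, so its value is uncertain. *ITGB5*, a further beta partner of alphaV, was at 27.3 and 22.9 CPM in HCT116 and 16.3 and 13.9 CPM in NCI-H716 on the 8-library scale, higher in HCT116 by 0.73 (adjusted p = 0.0319, edgeR). Of the 7 integrin subunits tested between the lines, 4 alpha and 3 beta, all 7 passed, against 73.8% of all genes, 2 alpha and 2 beta subunits being higher in HCT116. *ITGA1*, *ITGB6* and *ITGB8* passed the filter on low counts only through the line where they were high. Their direction was set beforehand, and the count of 7 is partly set by the filter. With Z325, none of the laminin and integrin genes considered outside the 9 passed in edgeR in either line. *ITGA1* had 24 and 3 counts in treated HCT116 cells against 3 and 1 in control (unadjusted p = 0.0229, adjusted p = 0.139, edgeR). It passed the filter there only through the treated libraries, so this direction was set beforehand. In NCI-H716 *ITGA1* went from 85.7 and 95.9 CPM to 113 and 130 CPM (log2 fold change 0.42, adjusted p = 0.254, edgeR).

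**Figure D2:**
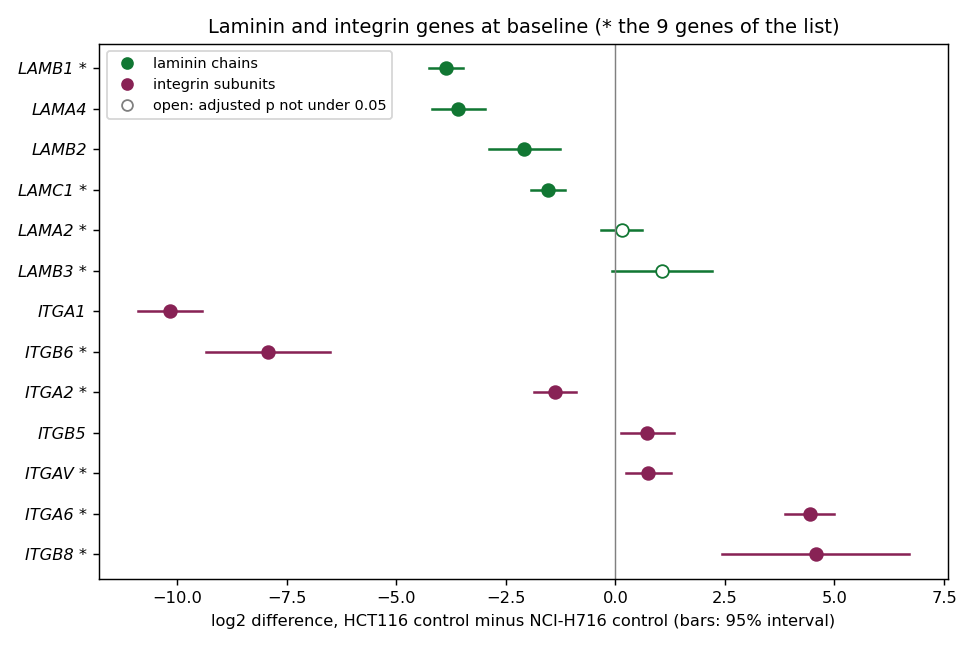
Log2 difference of HCT116 control minus NCI-H716 control (horizontal axis) with its 95% interval for the laminin (green) and integrin (purple) genes considered, open where the adjusted p was not under 0.05 and with a star for the 9 genes of the list. The fitted positions of *ITGB6* and *ITGB8* rest on 2 and 3 counts in the lower line, and their counting intervals are given in the text; *LAMA2* and *LAMB3* are the open points.

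Subunits and chains that fall outside the HCT116 stretch were read in NCI-H716 alone. *ITGB1*, the common beta subunit, was at 167 and 169 CPM in control and 185 and 179 CPM in treated cells (log2 fold change 0.11, adjusted p = 0.761, edgeR). *ITGB4*, the hemidesmosome partner of the *ITGA6* subunit, had 0, 1, 4 and 5 counts in the 4 libraries, and *LAMA3*, the alpha chain that joins *LAMB3*, had 4, 2, 0 and 0. *LAMA5*, the main alpha chain of adult epithelial basement membranes, was at 10.5 and 6.11 CPM in control and 8.55 and 5.68 CPM in treated cells, which overlapped. *ITGAE*, the alpha subunit of the E-cadherin receptor of intraepithelial lymphocytes, was at 117 and 141 CPM in control and 145 and 141 CPM in treated cells. *ITGAE* shares 6.47% of its exon bases with *HASPIN* on the other strand. *ITGB7*, the beta subunit of that E-cadherin receptor, had 0 counts in all 4 libraries.

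Levels of different genes can be compared only per length. With the length in the HCT116 table, which counts every annotated exon base of a gene, applied to both lines (FPKM over the shared genes), the order in HCT116 controls was *ITGA6* (20.0 FPKM), *LAMC1* (5.01), *ITGA2* (3.44), *ITGAV* (2.75), *LAMA2* (1.72), *LAMB3* (1.52), *LAMB1* (1.09), *ITGB8* (0.44) and *ITGB6* (0.013). The neighbours *ITGA2* and *ITGAV*, and *LAMA2* and *LAMB3*, overlapped between libraries and cannot be ordered. In NCI-H716 controls it was *LAMB1* (17.7 FPKM), *LAMC1* (16.4), *ITGA2* (9.995), *ITGB6* (4.18), *ITGAV* (1.84), *LAMA2* (1.75), *ITGA6* (1.03), *LAMB3* (0.84) and *ITGB8* (0.022), and there *LAMB1* with *LAMC1*, *ITGAV* with *LAMA2*, and *ITGA6* with *LAMB3* overlapped. In treated HCT116 cells *LAMB3* (4.75 FPKM) stood above *ITGA2* (3.67) and *LAMA2* (0.64) below *LAMB1* (1.13), and *ITGA6* and *LAMC1* kept the first 2 places on this scale.

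The order changed with the length chosen. Exon bases exceed the canonical transcript (the 1 transcript the annotation marks as representative) 3.29-fold for *LAMB1*, 2.75-fold for *ITGAV*, 2.72-fold for *LAMA2* and 1.69-fold for *ITGB8*, and 1.01-fold to 1.25-fold for the other genes. Divided by the canonical length, an alternative added after the data were seen, HCT116 controls gave *ITGA6* (22.9 FPKM), *ITGAV* (7.55), *LAMC1* (5.34), *LAMA2* (4.67), *LAMB1* (3.57), *ITGA2* (3.46), *LAMB3* (1.76), *ITGB8* (0.75) and *ITGB6* (0.016), of which *LAMB1* and *ITGA2* overlapped. *ITGAV* thus went from the fourth place to the second, and *LAMB1* from below *LAMB3* to above it. In NCI-H716 controls the canonical length kept the order, with *LAMB1* at 58.2 FPKM now clear of *LAMC1* at 17.4, and *ITGB6* (5.20) overlapping *ITGAV* (5.04). In treated HCT116 cells it put *ITGAV* (8.57 FPKM) second, and *LAMB3* (5.50) overlapped *LAMC1* (5.83) and stood above *LAMB1* (3.72).

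The FPKM deposited for NCI-H716 divides by yet another length, which RSEM averages over the transcripts it estimates to be present. For *LAMB1* that length was 1333 to 1515 bases, 23.6% to 26.8% of the 5650 bases of the canonical transcript, and for *LAMA2* it was 1977 to 2175 bases, 20.4% to 22.4% of 9696 bases. For *LAMB3*, *ITGA2*, *ITGA6*, *ITGAV* and *ITGB6* it was at least 80.9% of the canonical length in all 4 libraries, for *LAMC1* 50.5% to 67.6%, and for *ITGB8*, with at most 6 counts a library, 19.2% to 62.1%. On the authors' FPKM, NCI-H716 controls held *LAMB1* at 99.7 and 128 FPKM and *LAMA2* at 10.4 and 11.5 FPKM, well above *ITGA2* at 4.12 and 4.89 FPKM. *LAMA2* thus had rank 3 of the 9 genes by the authors' FPKM and rank 6 by exon bases or canonical length. Whether short transcripts of *LAMB1* and *LAMA2* were present or how RSEM divided the reads was not tested, and the comparisons of Z325 with control by counts do not use any of these lengths.

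Within sets of alternative chains, the shares of the members differed between the lines. Of the summed FPKM of *LAMB1*, *LAMB2* and *LAMB3*, *LAMB3* made up 48.3% and 45.4% in HCT116 controls and 74.0% and 68.1% with Z325 by exon bases, and 29.6% and 28.0% in control and 57.5% and 50.4% with Z325 by canonical length. The leading beta chain of HCT116 controls was therefore *LAMB3* by exon bases and *LAMB1*, at 59.1% and 58.2%, by canonical length, while in treated cells *LAMB3* led by both. *LAMB1* led in all 4 NCI-H716 libraries, with 80.2% to 84.8% by exon bases and 91.7% to 93.9% by canonical length. Of *ITGA1*, *ITGA2*, *ITGA6* and *ITGAV* together, *ITGA6* held 73.2% to 77.0% by exon bases in the HCT116 libraries (62.4% to 68.5% by canonical length) and 4.04% to 5.32% in those of NCI-H716 (3.11% to 4.00%). In NCI-H716 *ITGA1* held 46.4% to 49.7% (53.6% to 55.6%) and *ITGA2* 32.2% to 41.4% (20.2% to 28.3%). Of *ITGB5*, *ITGB6* and *ITGB8*, the alphaV partners listed for both lines, *ITGB5* held 85.8% to 97.3% in HCT116 (84.0% to 96.9% by canonical length). In NCI-H716, *ITGB6* held 60.3% to 70.6% of this set (56.3% to 67.1%). *ITGB1*, not listed for HCT116, is outside the set. By the authors' FPKM it was at 46.8 and 48.9 in NCI-H716 controls, against 2.36 and 2.65 for *ITGB6*. These are therefore not shares of all beta partners. The share of *ITGB8* in HCT116 was 14.2% and 5.89% in control and 4.84% and 2.70% in treated cells by exon bases. These shares are descriptions of RNA and carry no test, and each gene's own test is given with its values.

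**Figure D3:**
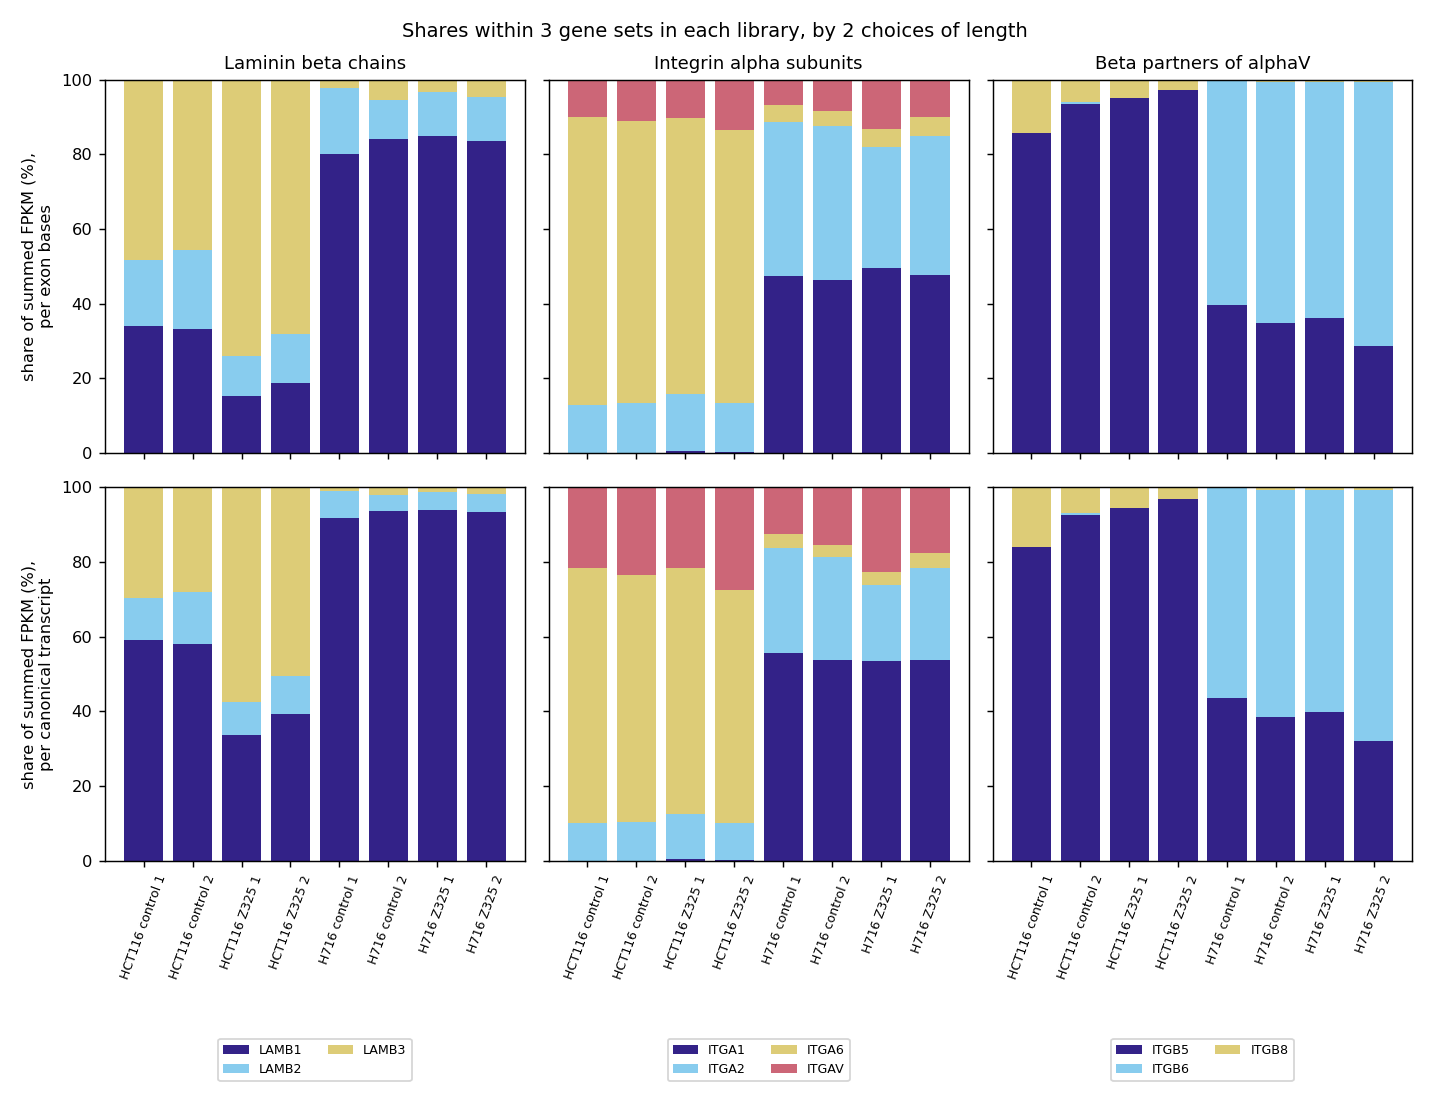
Share of summed FPKM (vertical axis, percent) of laminin beta chains, of integrin alpha subunits and of beta partners of alphaV, in each of the 8 libraries, per exon base in the upper row and per canonical transcript length in the lower row. *LAMB3* takes 45.4% to 74.0% of the beta chains in HCT116 in the upper row but 28.0% to 57.5% in the lower. It takes at most 5.51% in NCI-H716 in both, and *ITGB6* is seen in NCI-H716. Each set holds only genes listed for both lines, not all chains or partners.

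The matrix proteins and partners around these genes were read from lists of other basement membrane proteins, other integrin ligands, dystroglycan and further laminin receptors, integrin adaptors, and proteins of latent TGF-beta. With Z325 in HCT116, 0 of 6 basement membrane genes passed in edgeR (2 at an unadjusted p under 0.05), and 2 of 7 integrin ligands did, against 5.78% of all genes (23.9% at an unadjusted p under 0.05). Osteopontin (*SPP1*), a ligand of alphaV integrins, rose from 9.69 and 14.0 CPM to 38.0 and 41.0 CPM (log2 fold change 1.74, adjusted p = 0.0146, edgeR). *COL12A1*, a fibril-associated collagen, fell from 71.0 and 64.9 CPM to 37.1 and 34.1 CPM (-0.93, adjusted p = 0.0379). Of 3 genes tested on the latent TGF-beta list, which also holds TGF-beta receptors, 1 passed. *TGFBR2*, the TGF-beta type II receptor, fell from 29.1 and 29.9 CPM to 12.0 and 11.2 CPM (-1.34, adjusted p = 0.0285, edgeR).

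The receptor of *LAMA2* outside the integrins is dystroglycan, encoded by *DAG1*. It was at 27.1 and 29.0 CPM in control and 15.3 and 18.3 CPM in treated HCT116 cells, a log2 fold change of -0.75 that did not pass (unadjusted p = 0.0213, adjusted p = 0.134, edgeR). Of the 6 laminin receptors tested, 0 passed in edgeR and 1 had an unadjusted p under 0.05, against the same 5.78% and 23.9% of all genes, and their median was -0.58 beside -0.03 for all genes. Among 9 integrin adaptors, 0 passed in edgeR and 2 had an unadjusted p under 0.05 (5.78% and 23.9% of all genes), *TNS3* (-2.06, adjusted p = 0.0643) and *DST* (-0.61, adjusted p = 0.0898).

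In NCI-H716, the lists held 1 call. *NTN4*, netrin-4, which binds laminin gamma chains in basement membranes, rose from 8.78 and 7.66 CPM to 19.3 and 21.6 CPM (log2 fold change 1.31, adjusted p = 0.0466, edgeR). It was 1 of 4 basement membrane genes tested. In edgeR, 0 of 10 integrin ligands, 0 of 9 laminin receptors, 0 of 25 adaptors and 0 of 5 latent TGF-beta genes passed, with 2, 1, 8 and 1 at an unadjusted p under 0.05. Of all genes, 0.502% passed and 16.9% had an unadjusted p under 0.05. The adaptor *TNS3* again had both treated libraries lower, at 45.6 and 54.6 CPM in control against 28.9 and 30.5 CPM (-0.75, adjusted p = 0.121).

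Between the untreated lines, where 73.8% of all genes differed, genes of these lists differed in both directions. *COL3A1*, a fibrillar collagen that is also on the fibroblast marker list, was at 534 and 558 CPM in NCI-H716 and at 0.154 and 0 CPM in HCT116, and *EDIL3*, an RGD ligand of alphaV integrins, at 57.9 and 63.8 CPM against 0.154 and 0 CPM, on the 8-library scale. *COL12A1* went the other way, at 75.8 and 67.8 CPM in HCT116 and 0.332 and 0 CPM in NCI-H716. *FRAS1*, a basement membrane protein of epithelia, was at 49.3 and 43.1 CPM in HCT116 and 0.663 and 1.84 CPM in NCI-H716, and *SPARC* was listed at 0 in both NCI-H716 controls and at 7.87 and 33.4 CPM in HCT116. Of 5 basement membrane genes tested, 4 differed, all higher in HCT116, the line through which they passed the filter on low counts. Of 6 laminin receptors, 4 differed, 1 higher and 3 lower in HCT116. Of 10 integrin ligands tested, 8 differed, 2 higher and 6 lower in HCT116. Of 9 adaptors, 7 differed, 1 higher and 6 lower, among the lower *LIMS1* (-2.25, adjusted p = 7.15e-08) and *TNS3* (-3.88, adjusted p = 1.26e-07, edgeR). The counts of ligands and adaptors are near the share of all genes, of which 33.1% were higher and 40.7% lower. *COL3A1*, *EDIL3* and *COL12A1* also passed the filter only through the line where they were high. For these and the basement membrane genes called, the direction was set beforehand. Of the latent TGF-beta list, 5 of 12 genes are listed for both lines and 3 were tested. All 3 were higher in HCT116, against 33.1% of all genes. *TGFBR3* and *LTBP1* were at 0 CPM in both NCI-H716 controls, so they passed the filter only through HCT116. Their direction was therefore set beforehand. *TGFBR2* was at 31.0 and 31.3 CPM in HCT116 against 11.1 and 10.2 CPM in NCI-H716. In the test of the difference in response between the lines, 0 of the 35 genes tested on these 5 lists passed in edgeR, against 0.0654% of all genes, and 11 had an unadjusted p under 0.05, against 14.3%.

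Genes with the pattern most like that of each member over the 8 libraries were sought among 4417 genes with a mean of at least 10 CPM, by the root mean square distance of log2(CPM + 0.5) after each gene was centred on its own mean. The closest pair was *LAMC1* with *PPM1B* (0.084), followed by *ITGA2* with *FAM172A* (0.0923) and *ITGB6* with *WASHC5* (0.146). *LAMB1* lay nearest to *BDH2* (0.165), *ITGAV* to *ZBTB11* (0.177), *LAMA2* to *SOX4* (0.188) and *ITGA6* to *ENAH* (0.244). *ITGB8* and *LAMB3* had no close neighbour, the nearest being *CPOX* (0.362) and *YPEL5* (0.431). No member was the nearest gene of another. The distances include the gap between the lines, which cannot be told apart from the counting tool. *ITGB6* had 0 or 2 counts in each HCT116 library, so there its values rest mainly on the added 0.5.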

How the data were processed

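RNA had been amplified by SMART-Seq2 and sequenced in 8 libraries. For HCT116 the authors deposited raw counts per gene with exon lengths, in the featureCounts layout, and for NCI-H716 the authors deposited RSEM expected counts, FPKM and lengths per library. The methods name TrimGalore, STAR, RSEM and GRCh38, while the submitters' processing notes name Bowtie2 2.5.0, featureCounts and hg38. How reads shared between genes were counted is not given in the sources used here. Of 28047 lines for HCT116, 4 broken or unfinished ones were left out. Expected counts were rounded, and GENCODE v44 gave symbols for 62666 NCI-H716 genes. Rows for genes absent from one table entered no comparison between lines.

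Tests used edgeR 4.0.16 (TMM, filterByExpr, quasi-likelihood, no replicate block) with adjustment over all genes tested, each comparison fitted alone, and the difference in response as an interaction over 8 libraries. Exact tests of single values were not used, as with 2 against 2 libraries their smallest two-sided p is 0.333. Alternatives were DESeq2 1.42.0, library totals, other filters, limma 3.58.1 on log2(FPKM + 1 or + 0.1), a block, 1 fit of all libraries, thinning to the shallowest library and leaving out each library. On simulated counts with 200 genes changed 4-fold, edgeR recovered 84% in HCT116 (6491 genes), 93% in NCI-H716 (14142), 94% between lines (7343) and 50% for the difference in response (7642). The members and lists were chosen with earlier results of these data known, and 1 gene of the lists is not reported here. All 9 genes are named in every comparison, laminin and integrin genes where they passed the filter or to complete the family, and from each other list at most 4 genes with the smallest adjusted p. Genes of the family with too few counts to test, *ITGB8-AS1* and the markers were named after their values were seen.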

Additional observations from a re-analysis of the deposited data

How the results depend on the processing

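With 2 libraries per group, which libraries enter sets most counts. In HCT116, 375 genes were called in edgeR, against 709 in DESeq2, 683 without a filter, 615 with at least 10 counts in every library, 0 in limma on log2(FPKM + 1) and 0 on log2(FPKM + 0.1) (1448 and 1532 at an unadjusted p under 0.05), 35 in limma at a mean FPKM of at least 1, and 23 to 1076 with 1 library left out. The 2 genes of the list became 0 in each limma fit and 0 to 3 with 1 library left out, 0 without either HCT116 control replicate. In NCI-H716, 71 genes became 316 in DESeq2, 777 without a filter, 1, 3 and 8 in the limma fits, 19 with all 8 libraries in 1 fit and 38 to 1386 with 1 library left out, and the 0 genes of the list became 2 in DESeq2 and without a filter and 0 to 2 with 1 library left out. Between the lines, 5422 became 3207 with at least 10 counts in every library, and 6 to 8 genes of the list were called with 1 library left out. For the difference in response, 5 became 104 in DESeq2, 106 without a filter, 26 with at least 10 counts, 1, 1 and 17 in limma, 18 after thinning and 0 to 61 with 1 library left out, and DESeq2 called 1 gene of the list.

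The replicate numbers are shared by the groups, but the deviations of same-numbered libraries correlated at -0.031 in HCT116 and 0.198 in NCI-H716, which with 2 pairs does not show a pairing. With the replicate block, 381 genes and 2 of the list were called in HCT116, 2397 and 2 in NCI-H716, 4787 and 7 between the lines, and 12 and 0 for the difference in response.

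Of 459 recomputed fold changes of the 9 genes, 407 kept direction and side of the threshold, 16 lost a call, 16 gained one and 20 changed sign, none of the last having been called. In HCT116, thinning gave -0.05 for *LAMB1*, -0.04 for *ITGA2* and 0.07 for *ITGA6*, and leaving out 1 library gave -0.04 to 0.32 for *ITGA2*, -0.25 to 0.22 (0.06 between them) for *ITGA6* and -0.11 to 0.48 for *ITGAV*. In NCI-H716, it gave -0.03 to 0.18 for *LAMA2* and -0.11 to 0.35 for *ITGA2*. Between the lines, *LAMA2* was at -0.02 with library totals and in each limma fit. For the difference in response, it gave -0.09 to 1.45 for *LAMB3*, -0.49 to 0.08 for *LAMC1* and -0.23 to 0.26 for *ITGA2*, which was -0.09 without a filter. The cause of these changes was not tested. Values of *ITGB6* in HCT116 and *ITGB8* in NCI-H716 rest on at most 6 counts a library and were not recomputed for the response or its difference. The lower recovery in simulations of the difference in response limits what a missed call there can show. Dividing by canonical length instead of exon bases, chosen after the data were seen, changed the order of levels and the leading laminin beta chain of HCT116 controls, as given with those values, and touches no test on counts.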
